A study of Homo sapiens with 18 samples.

Results

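The libraries described here come from A375, a BRAF-mutant human melanoma cell line, in a derivative labelled R and read as resistant to combined BRAF and MEK inhibition. They comprise 2 libraries with an LSD1 hairpin (R_shLSD1) and 2 libraries with a control hairpin (R_shCtrl), chosen by their labels, 4 of the 18 libraries of the series. All 4 share the A375 background and lentiviral delivery of a hairpin, and their labels name no drug treatment. The rest of the series holds the same hairpins in the line labelled P and read as parental (P_shLSD1 and P_shCtrl), an R line with a FOSL1 hairpin (R_shFosL1), and both lines with vehicle or with 250 nM dabrafenib plus 10 nM trametinib, each with 2 libraries. The labels give 1 genotype for the LSD1 hairpin with no hairpin sequence, so loss of LSD1 and any action of the hairpin on other transcripts cannot be told apart. Nothing in the labels says that the 2 libraries of a group came from separate cultures, so p-values measure the spread between these libraries, which may be technical.

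LSD1, encoded by KDM1A, removes methyl groups from lysine residues of histone H3 and works in complexes with the CoREST scaffolds and the histone deacetylases HDAC1 and HDAC2. DNA-binding repressors such as REST, GFI1 and the SNAI proteins bring the complex to genes, and LSD1 can also act in gene activation with nuclear receptors. In melanoma cells, tolerance of BRAF and MEK inhibitors is known to go with changes of cell state, from melanocytic to neural crest-like or AXL-high dedifferentiated. Mesenchymal-like drug-resistant cells are also known for a dependence on protection from ferroptosis, a form of cell death driven by iron and lipid peroxides.

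Expression was deposited as FPKM (fragments counted per transcript length and library size), which can be compared between genes per length. Between 13948 and 14028 genes reached 1 FPKM in each of the 4 libraries. No source used here states the depth, and steps between low values gave a weak signal of about 8.23 to 10.1 M fragments per library. Mitochondrially encoded mRNAs held 15.1% to 16.3% of all FPKM in R_shLSD1 and 12.8% to 13.7% in R_shCtrl. Libraries of a group correlated at Pearson's r = 0.974 in both groups across tested genes, against 0.942 to 0.945 between groups. Of the melanocytic markers, SOX10, TYR, TYRP1 and S100B were listed at 0 in all 4 libraries and MITF was present. The summed level of the 8 markers, nearly all of it MITF, was 37.9 to 41.1 FPKM in R_shLSD1 and 24.1 to 28.1 FPKM in R_shCtrl. For other cell types the summed levels were 20.9 to 28.4 FPKM in R_shLSD1 and 13.6 to 15.3 FPKM in R_shCtrl for 6 fibroblast markers, chiefly COL1A1 and LUM. Of these 2, LUM was higher in R_shLSD1, while COL1A1 was lower, with 7.77 and 5.82 FPKM against 10.03 and 10.5 FPKM in R_shCtrl. The summed levels were 82.9 to 87.9 FPKM in R_shLSD1 and 113 to 122 FPKM in R_shCtrl for 6 leukocyte markers, chiefly CD68 with PTPRC under 1 FPKM. They were 23.2 to 37.1 FPKM in R_shLSD1 and 25.8 to 39.2 FPKM in R_shCtrl for 6 keratinocyte markers, chiefly KRT10, and at most 0.904 FPKM for endothelial and erythroid markers. The part of these levels in the results was not tested.

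The LSD1 hairpin went with broad differences in expression in both directions. Genes were tested where 2 or more of the 4 libraries reached 1 FPKM. Of these 14293 genes, 3118 (21.8%) passed an adjusted p of 0.05 with limma, 1347 (9.42%) of them higher and 1771 (12.4%) lower in R_shLSD1. The excess of lower calls was not seen with quantile normalization (1556 higher, 1514 lower) or without R_shCtrl replicate 1 (492 higher, 474 lower). At least 2-fold differences on the log2(FPKM + 1) scale were called for 933 genes (6.53%), of which 432 (3.02%) were higher and 501 (3.51%) lower. The median difference over all tested genes was -0.05, and 9202 genes (64.4%) did not overlap between the groups. An exact permutation test of 2 against 2 libraries cannot go below p = 0.333, so the calls rest on the spread that limma shares across genes. Each library left out in turn lowered the number of calls by more than 1.5 times, to 1439 without R_shLSD1 replicate 1, 1398 without R_shLSD1 replicate 2, 966 without R_shCtrl replicate 1 and 1212 without R_shCtrl replicate 2. A total of 749 genes, 356 higher and 393 lower, kept their call and direction in all 4 of those fits, and the number of such members is given with each gene group. Below, a difference is R_shLSD1 minus R_shCtrl in mean log2(FPKM + 1), printed with its standard error. A named gene said to rise or fall kept its call in all 4 of those fits unless its values there are given. The plot of all tested genes shows calls on both sides.

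**Figure D1:**
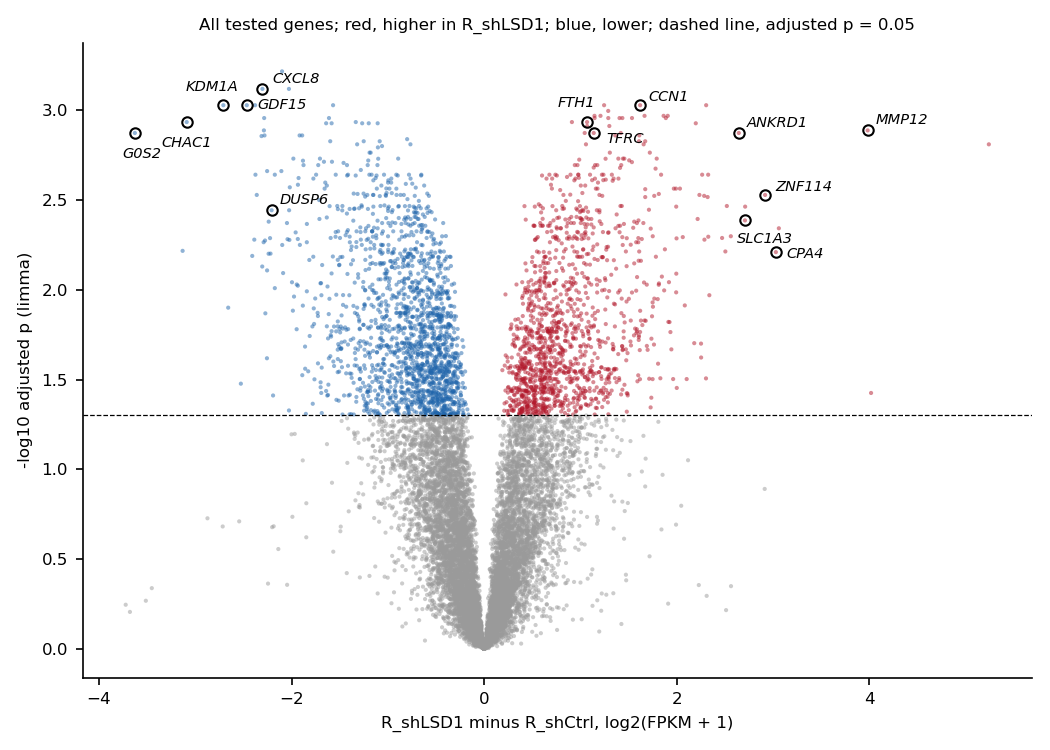
Difference between R_shLSD1 and R_shCtrl in log2(FPKM + 1) (x axis) against −log10 of the limma adjusted p (y axis) for 14293 genes, with 1347 called higher in red, 1771 called lower in blue and the rest in grey. Called genes lie on both sides, MMP12, CPA4 and ZNF114 far to the right and G0S2, CHAC1 and KDM1A far to the left.

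KDM1A itself fell. It had 10.1 and 11.1 FPKM in R_shLSD1 libraries, against 73.3 and 76.5 FPKM in R_shCtrl libraries, so the LSD1 hairpin libraries held 14.2% of the control level (difference -2.71 ± 0.10, adjusted p = 0.00094). Both R_shLSD1 libraries lay below both R_shCtrl libraries. The gene lies on chr1:23019443-23083689 (hg38) on the plus strand. Of 19 other tested members of the LSD1-CoREST complex and its recruiters, 1 rose and 4 fell (0 and 2 in every fit with 1 library left out), with a median of -0.23 against -0.05 over all genes and a called share of 26.3% against 21.8%. CTBP1, a corepressor that binds the complex, had 24.5 and 28.9 FPKM in R_shLSD1 libraries, against 74.6 and 64.6 FPKM in R_shCtrl libraries (difference -1.35 ± 0.12, adjusted p = 0.0035). HDAC2, the deacetylase partner of LSD1, had 62.2 and 67.01 FPKM in R_shLSD1 libraries, against 121 and 108 FPKM in R_shCtrl libraries (difference -0.81 ± 0.09, adjusted p = 0.005). The other tested members include the scaffold RCOR1 with a difference of -0.23 and the LSD1 paralogue KDM1B with 0.52, neither of which passed the test. REST, which recruits the complex, had 5.201 and 5.43 FPKM in R_shLSD1 libraries, against 9.32 and 10.9 FPKM in R_shCtrl libraries (difference -0.81 ± 0.16, adjusted p = 0.024), and its call was lost in all 4 fits with 1 library left out, with an adjusted p of 0.077 without R_shLSD1 replicate 1, 0.07 without R_shLSD1 replicate 2, 0.074 without R_shCtrl replicate 1 and 0.11 without R_shCtrl replicate 2. Among 34 histone and DNA methylation enzymes, 3 were higher and 8 lower, and none of these calls held in all 4 fits with 1 library left out.

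**Figure D2:**
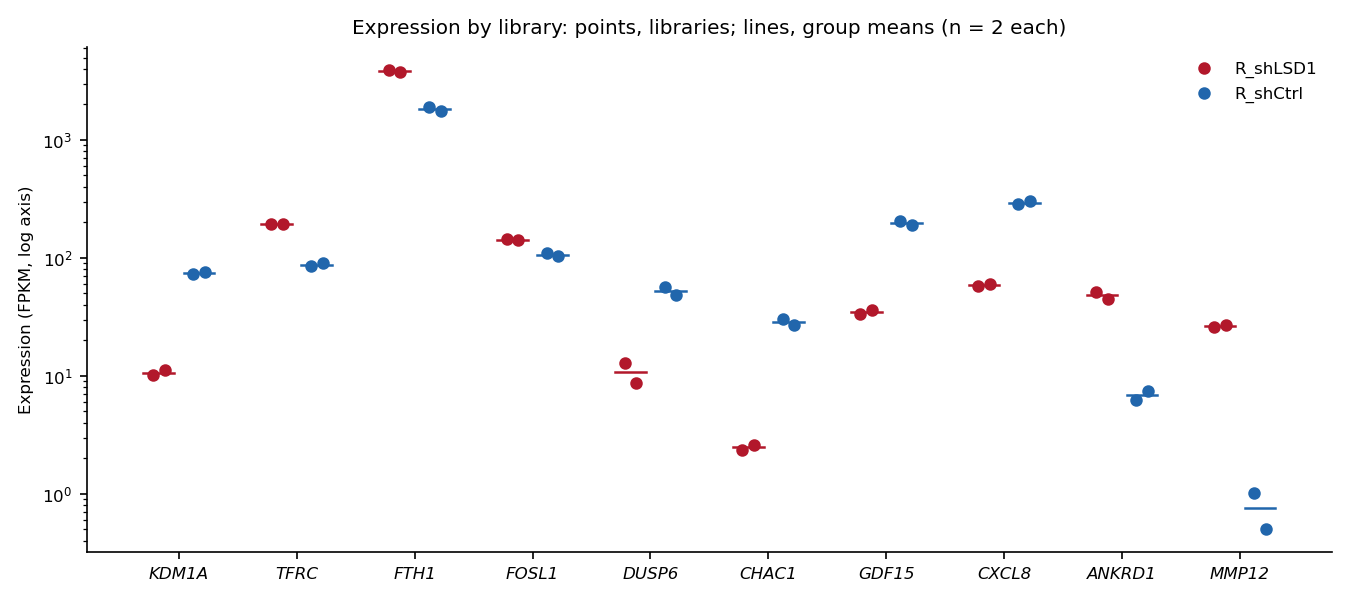
FPKM on a log axis of 10 genes in the 2 R_shLSD1 libraries (red, left) and the 2 R_shCtrl libraries (blue, right), with group means as lines. For each of the 10 genes, all of them called, the 2 groups do not overlap, as for 64.4% of all tested genes. KDM1A, DUSP6, CHAC1, GDF15 and CXCL8 are lower and TFRC, FTH1, FOSL1, ANKRD1 and MMP12 higher in R_shLSD1.

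The largest rises included secreted enzymes, a peptide hormone and a glutamate transporter. MMP12, a matrix metalloproteinase that degrades elastin, had 26.2 and 26.8 FPKM in R_shLSD1 libraries, against 1.02 and 0.5001 FPKM in R_shCtrl libraries (difference 3.98 ± 0.20, adjusted p = 0.0013). CPA4, a secreted carboxypeptidase, had 17.05 and 16.6 FPKM in R_shLSD1 libraries, against 2.101 and 0.535 FPKM in R_shCtrl libraries (difference 3.03 ± 0.35, adjusted p = 0.0062). ZNF114, a zinc-finger protein, had 19.9 and 19.4 FPKM in R_shLSD1 libraries, against 2.37 and 1.21 FPKM in R_shCtrl libraries (difference 2.92 ± 0.24, adjusted p = 0.003). In all 3 genes the R_shCtrl libraries lay between 0.5001 and 2.37 FPKM, close to the pseudocount of 1, so their differences understate the change. SLC1A3, which carries glutamate and aspartate into cells, had 23.8 and 27.6 FPKM in R_shLSD1 libraries, against 2.19 and 4.197 FPKM in R_shCtrl libraries (difference 2.71 ± 0.26, adjusted p = 0.0041). A further 3 genes were below 1 FPKM in both R_shCtrl libraries and could not be tested when an R_shLSD1 library was left out. NPPB, the precursor of B-type natriuretic peptide, had 7.15 and 11.02 FPKM in R_shLSD1 libraries, against 0 and 0.405 FPKM in R_shCtrl libraries (difference 3.06 ± 0.31, adjusted p = 0.0045). IL18, an inflammatory cytokine, had 8.77 and 9.28 FPKM in R_shLSD1 libraries, against 0.577 and 0.934 FPKM in R_shCtrl libraries (difference 2.52 ± 0.22, adjusted p = 0.0034). PLEKHS1 had 7.29 and 4.58 FPKM in R_shLSD1 libraries, against 0.138 and 0.259 FPKM in R_shCtrl libraries (difference 2.51 ± 0.29, adjusted p = 0.0061). These 3 genes passed the filter through R_shLSD1 alone, so their direction was fixed by it.

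The largest falls were led by a regulator of fat breakdown and by stress-response genes. G0S2, an inhibitor of the triglyceride lipase ATGL, had 7.01 and 4.76 FPKM in R_shLSD1 libraries, against 90.9 and 75.7 FPKM in R_shCtrl libraries (difference -3.63 ± 0.19, adjusted p = 0.0013). CHAC1, which breaks down glutathione, had 2.34 and 2.62 FPKM in R_shLSD1 libraries, against 30.2 and 27.02 FPKM in R_shCtrl libraries (difference -3.09 ± 0.15, adjusted p = 0.0012). GDF15, a secreted stress cytokine of the TGF-beta family, had 33.3 and 36.6 FPKM in R_shLSD1 libraries, against 206 and 189 FPKM in R_shCtrl libraries (difference -2.47 ± 0.08, adjusted p = 0.00094). G0S2 held 7.06%, CHAC1 8.66% and GDF15 17.7% of its control level. MAT2B, the regulatory subunit of methionine adenosyltransferase, had 13.1 and 9.33 FPKM in R_shLSD1 libraries, against 61.6 and 61.4 FPKM in R_shCtrl libraries (difference -2.38 ± 0.16, adjusted p = 0.0023). EI24, a membrane protein of the endoplasmic reticulum, had 29.9 and 26.1 FPKM in R_shLSD1 libraries, against 150.2 and 149 FPKM in R_shCtrl libraries (difference -2.38 ± 0.09, adjusted p = 0.00094). MAP1B, a microtubule-associated protein, had 12.5 and 15.6 FPKM in R_shLSD1 libraries, against 71.6 and 75.3 FPKM in R_shCtrl libraries (difference -2.31 ± 0.13, adjusted p = 0.0014). MYEOV had 5.93 and 4.397 FPKM in R_shLSD1 libraries, against 34.4 and 26.9 FPKM in R_shCtrl libraries (difference -2.36 ± 0.19, adjusted p = 0.003).

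A group of 5 loci among the 10 largest rises or the 10 largest falls share sequence or position with another gene and are uncertain. The pseudogene SNRPGP15 had 27.4 and 49.5 FPKM in R_shLSD1 libraries and was listed at 0 in both R_shCtrl libraries, while its parent SNRPG had 256 and 252 FPKM in R_shLSD1 and 230.4 and 305 FPKM in R_shCtrl. The pseudogene HMGA1P2 was listed at 0 in both R_shLSD1 libraries and had 11.1 and 5.36 FPKM in R_shCtrl libraries, and its parent HMGA1 had 401 and 399 FPKM in R_shLSD1 and 684 and 678 FPKM in R_shCtrl (difference -0.77 ± 0.04, adjusted p = 0.0015). The ribosomal pseudogene RPL29P11, the readthrough transcript NDUFC2-KCTD14, which shares exons with NDUFC2, and RSC1A1, which overlaps DDI2, showed differences of -2.53, 4.02 and -2.305. None of the 5 kept its call in all 4 fits with 1 library left out. SNRPGP15 could not be tested without either R_shLSD1 library, and HMGA1P2 and RSC1A1 could not be tested without either R_shCtrl library. NDUFC2-KCTD14 had an adjusted p of 0.18 without R_shLSD1 replicate 1, 0.12 without R_shLSD1 replicate 2, 0.024 without R_shCtrl replicate 1 and 0.046 without R_shCtrl replicate 2. RPL29P11 had an adjusted p of 0.1 without R_shLSD1 replicate 1, 0.039 without R_shLSD1 replicate 2, 0.13 without R_shCtrl replicate 1 and 0.053 without R_shCtrl replicate 2. No source used here says how fragments were divided between such loci.

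Genes of iron uptake and ferroptosis promotion included 3 higher and 1 lower of 16 tested (3 and 1 in every fit with 1 library left out), with a median of 0.31. The called share of 25% was near the 21.8% of all tested genes. TFRC, the transferrin receptor that brings iron into cells, had 193 and 196 FPKM in R_shLSD1 libraries, against 85.2 and 90.1 FPKM in R_shCtrl libraries (difference 1.14 ± 0.06, adjusted p = 0.0013). The 2 R_shLSD1 libraries were each more than the sum of the 2 R_shCtrl libraries, and the groups did not overlap. ACSL4, which activates polyunsaturated fatty acids for later entry into phospholipids, had 95.04 and 97.4 FPKM in R_shLSD1 libraries, against 41.4 and 48.9 FPKM in R_shCtrl libraries (difference 1.08 ± 0.10, adjusted p = 0.0037). SAT1, a polyamine acetyltransferase, had 61.1 and 65.1 FPKM in R_shLSD1 libraries, against 37.3 and 30.4 FPKM in R_shCtrl libraries (difference 0.89 ± 0.12, adjusted p = 0.009). The member that fell was CHAC1, whose values are given above.

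Genes of ferroptosis defence moved both ways, with 4 higher and 3 lower among 19 tested (2 and 0 in every fit) and a median of -0.02. Both ferritin subunits, which store iron, rose and held their calls in every fit. FTH1 had 3921 and 3758 FPKM in R_shLSD1 libraries, against 1894 and 1766 FPKM in R_shCtrl libraries (difference 1.07 ± 0.05, adjusted p = 0.0012). FTL had 5356 and 5126 FPKM in R_shLSD1 libraries, against 3337 and 3088 FPKM in R_shCtrl libraries (difference 0.71 ± 0.05, adjusted p = 0.0024). GPX4, the peroxidase that detoxifies lipid peroxides, had 148 and 135 FPKM in R_shLSD1 libraries, against 149 and 149 FPKM in R_shCtrl libraries and was not called (difference -0.08 ± 0.07, adjusted p = 0.43). SLC7A11, the cystine transporter, had 2.84 and 3.28 FPKM in R_shLSD1 libraries, against 5.58 and 6.09 FPKM in R_shCtrl libraries (difference -0.75 ± 0.19, adjusted p = 0.044), and its call was lost in all 4 fits, with an adjusted p of 0.14 without R_shLSD1 replicate 1, 0.097 without R_shLSD1 replicate 2, 0.13 without R_shCtrl replicate 1 and 0.16 without R_shCtrl replicate 2. Its partner subunit SLC3A2 had a difference of 0.07 and was not called. The called share of the ferroptosis defence list was 36.8%, against 21.8% of all tested genes.

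Targets of ATF4 and the unfolded protein response were mostly lower. ATF4 is the transcription factor that cells use under amino acid shortage and stress of the endoplasmic reticulum to raise amino acid synthesis and transport. The called share of this list was 79.2%, against 21.8% of all tested genes. Of 24 tested members, 16 fell and 3 rose (12 and 0 in every fit with 1 library left out), and the median difference was -0.73 against -0.05 over all genes. ATF4 had 256 and 246 FPKM in R_shLSD1 libraries, against 441 and 414 FPKM in R_shCtrl libraries (difference -0.76 ± 0.06, adjusted p = 0.0024). The stress effectors DDIT3, which encodes CHOP, and TRIB3, a pseudokinase, followed the same direction. DDIT3 had 11.3 and 9.94 FPKM in R_shLSD1 libraries, against 58.2 and 45.3 FPKM in R_shCtrl libraries (difference -2.17 ± 0.15, adjusted p = 0.0023), and TRIB3 had a difference of -1.27 ± 0.11 (adjusted p = 0.0034). DDIT4, an inhibitor of mTORC1, had 49.8 and 39.1 FPKM in R_shLSD1 libraries, against 170.3 and 159 FPKM in R_shCtrl libraries (difference -1.88 ± 0.12, adjusted p = 0.002). Enzymes of serine, one-carbon and asparagine metabolism fell as well, with differences of -1.53 for PSPH, -0.71 for PSAT1, -1.199 for MTHFD2 and -0.96 for ASNS. XBP1, a transcription factor of the unfolded protein response, and HERPUD1, which serves the removal of misfolded proteins, had differences of -1.15 and -1.01. The chaperones HSP90B1 and SDF2L1 had differences of 0.09 and 0.17 and were not called, so the list did not move as one.

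The promoter windows of 2 members, CHAC1 and ASNS, are shown because both transcripts fell and their windows hold a match to TGATGNAA, a pattern like the element that ATF4 binds with C/EBP partners. The windows run from 250 bases before to 50 bases after the start in RefSeq (GRCh38.p14), at chr15:40953221-40953520 on the plus strand and chr7:97872359-97872658 on the minus strand. They are written 5′ to 3′ along the gene, and capitals mark a match on either strand to TGATGNAA or, in CHAC1 only, to a kappaB-like pattern (GGG, any 2 bases, TT, any base, CC).
CHAC1: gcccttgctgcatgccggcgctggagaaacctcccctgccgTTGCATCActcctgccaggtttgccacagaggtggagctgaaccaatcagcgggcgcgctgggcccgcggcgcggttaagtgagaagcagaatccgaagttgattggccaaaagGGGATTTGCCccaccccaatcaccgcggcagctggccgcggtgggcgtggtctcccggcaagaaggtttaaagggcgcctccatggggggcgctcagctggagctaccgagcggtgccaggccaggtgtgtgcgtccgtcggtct
ASNS: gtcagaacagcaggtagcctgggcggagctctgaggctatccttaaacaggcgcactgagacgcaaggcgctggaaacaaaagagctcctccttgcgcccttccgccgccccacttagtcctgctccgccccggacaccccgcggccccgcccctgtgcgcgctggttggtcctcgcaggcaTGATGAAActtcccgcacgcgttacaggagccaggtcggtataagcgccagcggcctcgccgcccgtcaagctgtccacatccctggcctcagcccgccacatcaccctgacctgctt
TGATGNAA was present on either strand in 3 of the 21 ATF4 list members with a window (14.3%), in 2.33% of genes called lower, in 1.42% of genes called higher and in 1.73% of all tested genes with a window. These shares describe letters and were not tested.

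Chemokine and cytokine genes known as NF-kB targets were mostly lower. NF-kB is a family of transcription factors that drives inflammatory genes and its own inhibitor. The called share of this list was 63.6%, against 21.8% of all tested genes. Of 22 tested members, 13 fell and 1 rose (8 and 1 in every fit with 1 library left out), with a median of -0.80. CXCL8, which encodes the neutrophil chemokine interleukin 8, had 57.8 and 59.9 FPKM in R_shLSD1 libraries, against 285 and 303 FPKM in R_shCtrl libraries (difference -2.303 ± 0.06, adjusted p = 0.00076). CXCL1, a chemokine for the same receptor, had 62.99 and 53.8 FPKM in R_shLSD1 libraries, against 305 and 271 FPKM in R_shCtrl libraries (difference -2.28 ± 0.10, adjusted p = 0.0011). The groups lay far apart for both chemokines, and the highest R_shLSD1 value of either was 63.0 FPKM, against a lowest R_shCtrl value of 271 FPKM. IL1A, an alarm cytokine, had 0.851 and 1.11 FPKM in R_shLSD1 libraries, against 9.16 and 7.55 FPKM in R_shCtrl libraries (difference -2.24 ± 0.22, adjusted p = 0.0042). CSF2, the granulocyte-macrophage growth factor, had 7.42 and 4.86 FPKM in R_shLSD1 libraries, against 24.96 and 27.7 FPKM in R_shCtrl libraries (difference -1.96 ± 0.20, adjusted p = 0.0048). IL6 had 29.2 and 34.6 FPKM in R_shLSD1 libraries, against 57.3 and 58.8 FPKM in R_shCtrl libraries (difference -0.85 ± 0.11, adjusted p = 0.0075). Within the pathway itself, the subunit gene NFKB2 had a difference of -1.21 and the inhibitor NFKBIA one of -0.65. IL24, a cytokine of the interleukin 10 family, was the member that rose, with 131 and 134 FPKM in R_shLSD1 libraries, against 74.2 and 81.5 FPKM in R_shCtrl libraries (difference 0.76 ± 0.07, adjusted p = 0.004). TNFAIP3 and CCL2 had differences of 0.13 and 0.56 and were not called.

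The promoter windows of the 2 chemokines with the smallest adjusted p are shown with matches to the AP-1 pattern TGANTCA and the kappaB-like pattern in capitals. CXCL8 lies at chr4:73740319-73740618 on the plus strand and CXCL1 at chr4:73869143-73869442 on the plus strand (GRCh38.p14, RefSeq), and capitals mark an AP-1 match in CXCL8 and a kappaB-like match in CXCL1. The CXCL8 window also holds tggaatttcc, which differs from the kappaB-like pattern only in its first base and is not marked. A window without a marked match can therefore still hold a similar site.
CXCL8: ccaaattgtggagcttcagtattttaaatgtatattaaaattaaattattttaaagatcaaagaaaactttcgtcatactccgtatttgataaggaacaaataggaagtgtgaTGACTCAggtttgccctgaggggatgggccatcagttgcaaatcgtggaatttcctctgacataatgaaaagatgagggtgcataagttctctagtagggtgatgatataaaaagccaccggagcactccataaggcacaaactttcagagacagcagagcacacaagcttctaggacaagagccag
CXCL1: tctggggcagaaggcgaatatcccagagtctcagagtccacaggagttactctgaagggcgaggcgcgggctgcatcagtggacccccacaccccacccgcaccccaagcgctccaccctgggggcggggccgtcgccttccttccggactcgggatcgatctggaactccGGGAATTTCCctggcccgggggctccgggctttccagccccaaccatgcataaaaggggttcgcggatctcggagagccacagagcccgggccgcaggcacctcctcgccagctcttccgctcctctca
The kappaB-like pattern was present on either strand in 8 of the 18 NF-kB list members with a window (44.4%), against 7.71% of genes called lower, 5.79% of genes called higher and 6.75% of all tested genes. These shares count full matches only, so the CXCL8 stretch is not among them. TGANTCA was present in 7.11% of genes called higher, 4.15% of genes called lower and 4.62% of all tested genes. The pattern TGACGTCA was present in 3.45% of genes called higher, 3.27% of genes called lower and 3.35% of all tested genes. An interferon response element-like pattern, GAAA repeated after any 2 bases, was present in 1.93% of genes called higher, 3.56% of genes called lower and 2.64% of all tested genes. None of these shares was tested, and the list holds known targets of NF-kB.

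**Figure D3:**
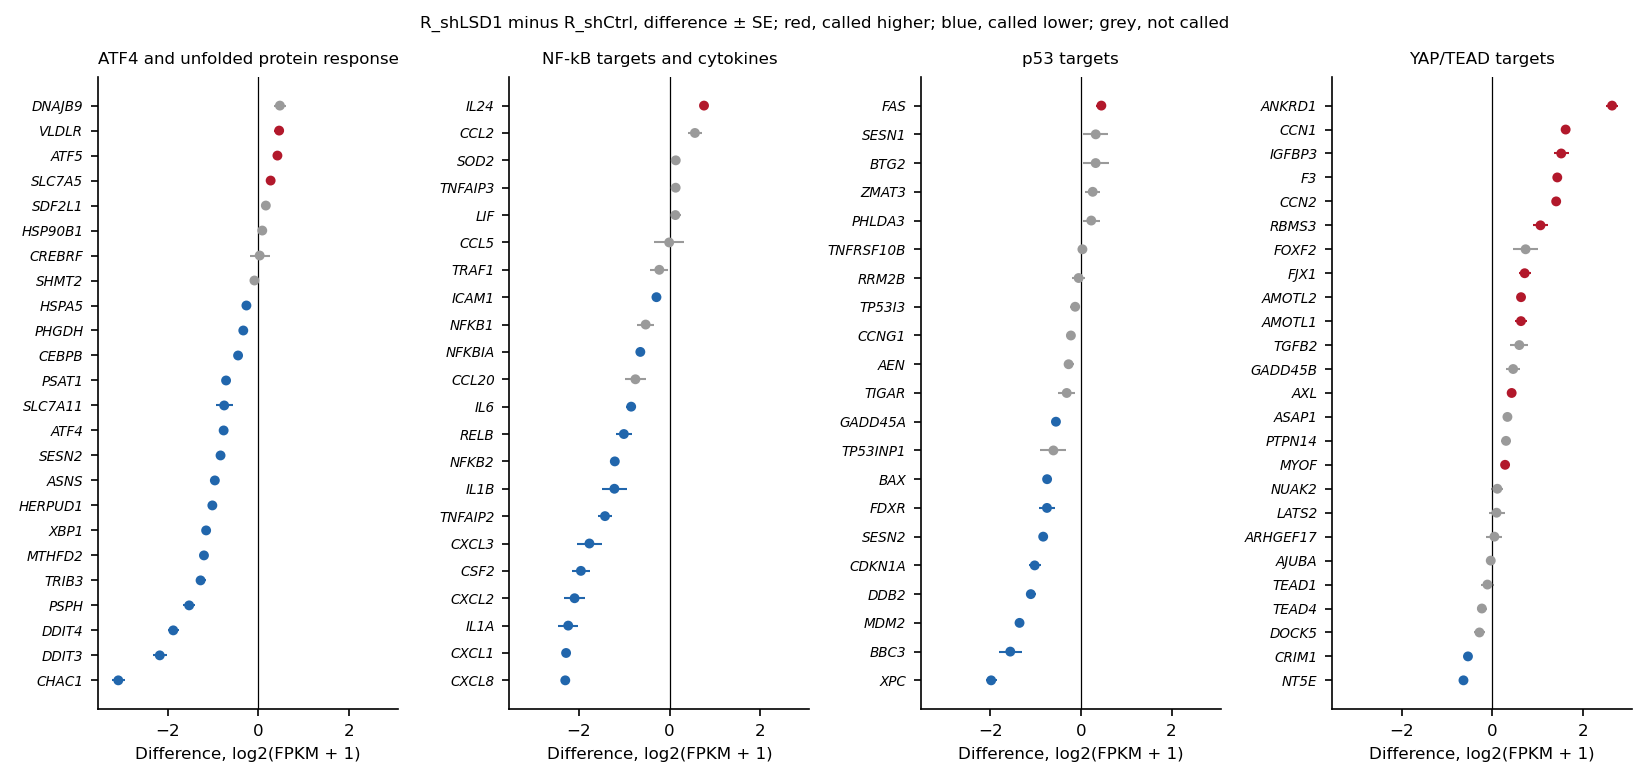
Difference ± SE in log2(FPKM + 1) between R_shLSD1 and R_shCtrl for each tested member of 4 gene lists, red where called higher, blue where called lower and grey where not called. Points lie mostly left of 0 for ATF4 (16 of 24 called lower), NF-kB (13 of 22) and p53 (9 of 21) and mostly right of 0 for YAP/TEAD (11 of 25 called higher).

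Targets of YAP and TEAD were called higher more often than lower. YAP is a coactivator held in check by the Hippo kinases, and TEAD factors bring it to growth and matrix genes. The called share of this list was 52%, against 21.8% of all tested genes. Of 25 tested members, 11 rose and 2 fell (6 and 0 in every fit with 1 library left out), with a median of 0.43. ANKRD1, a nuclear ankyrin-repeat protein, had 51.2 and 45.1 FPKM in R_shLSD1 libraries, against 6.21 and 7.51 FPKM in R_shCtrl libraries (difference 2.65 ± 0.14, adjusted p = 0.0013). CCN1, a secreted matrix protein, had 217 and 212 FPKM in R_shLSD1 libraries, against 68.9 and 69.2 FPKM in R_shCtrl libraries (difference 1.62 ± 0.06, adjusted p = 0.00094). F3, the tissue factor that starts coagulation, had 178 and 187 FPKM in R_shLSD1 libraries, against 64.8 and 68.8 FPKM in R_shCtrl libraries (difference 1.44 ± 0.07, adjusted p = 0.0011). All 6 measurements in R_shLSD1 lay above the R_shCtrl values of the same gene. CCN2, IGFBP3 and AMOTL2 had differences of 1.41, 1.52 and 0.64. The transcription factors themselves, TEAD1 and TEAD4, had differences of -0.11 and -0.23 and were not called.

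Matrix genes moved both ways, with 9 higher and 4 lower of 20 tested (8 and 2 in every fit) and a median of -0.05, the same as over all genes to 2 decimals. SPARC, a collagen-binding matrix protein, had 817 and 896 FPKM in R_shLSD1 libraries, against 285 and 304 FPKM in R_shCtrl libraries (difference 1.54 ± 0.07, adjusted p = 0.0011). FN1, fibronectin, had 716 and 716 FPKM in R_shLSD1 libraries, against 469 and 474 FPKM in R_shCtrl libraries (difference 0.60 ± 0.04, adjusted p = 0.0023). MMP3, stromelysin, had 15.1 and 13.9 FPKM in R_shLSD1 libraries, against 2.13 and 2.03 FPKM in R_shCtrl libraries (difference 2.33 ± 0.16, adjusted p = 0.0023). These 3 were higher in both R_shLSD1 libraries, as were TIMP3 with a difference of 1.44, COL12A1 with 1.39 and MMP1 with 1.82. The membrane-bound protease MMP14 had 25.1 and 22.2 FPKM in R_shLSD1 libraries, against 54.7 and 57.4 FPKM in R_shCtrl libraries (difference -1.21 ± 0.10, adjusted p = 0.003), and COL6A3, a chain of collagen VI, had 1.32 and 0.569 FPKM in R_shLSD1 libraries, against 7.88 and 8.13 FPKM in R_shCtrl libraries (difference -2.24 ± 0.26, adjusted p = 0.0063). LUM, also in the fibroblast marker list, had 20.5 and 14.8 FPKM in R_shLSD1 libraries, against 3.53 and 4.56 FPKM in R_shCtrl libraries. Of the other fibroblast markers, COL1A2 and DCN were listed at 0 in all 4 libraries, and COL3A1 and PDGFRA stayed under 1 FPKM. COL1A1 was lower in both R_shLSD1 libraries. The part of other cells in the LUM difference was not tested. The called share of the matrix list was 65%, against 21.8% of all tested genes.

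Genes of the dedifferentiated AXL-high state included 10 higher and 4 lower of 22 tested (7 and 2 in every fit), with a median of 0.00. TNC, tenascin C, had 77.9 and 80.2 FPKM in R_shLSD1 libraries, against 28.8 and 29.02 FPKM in R_shCtrl libraries (difference 1.42 ± 0.08, adjusted p = 0.0013). VIM, the intermediate filament vimentin, had 1244 and 1206 FPKM in R_shLSD1 libraries, against 2177 and 2089 FPKM in R_shCtrl libraries (difference -0.80 ± 0.04, adjusted p = 0.0014), the opposite direction. AXL, the receptor tyrosine kinase that gives the state its name, had 63.2 and 64.4 FPKM in R_shLSD1 libraries, against 46.8 and 47.5 FPKM in R_shCtrl libraries (difference 0.43 ± 0.07, adjusted p = 0.016), and the call was lost in all 4 fits, with an adjusted p of 0.062 without R_shLSD1 replicate 1, 0.073 without R_shLSD1 replicate 2, 0.072 without R_shCtrl replicate 1 and 0.06 without R_shCtrl replicate 2. EGFR had 10.8 and 12.4 FPKM in R_shLSD1 libraries, against 12.1 and 10.8 FPKM in R_shCtrl libraries and was not called (difference 0.01 ± 0.14, adjusted p = 0.96). The called share of the AXL-high list was 63.6%, against 21.8% of all tested genes.

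Markers of the more differentiated melanoma states were partly undetected. SOX10, the neural crest transcription factor, was listed at 0 in all 4 R libraries, as it was in R_shFosL1. Of 8 tested melanocyte genes 2 were higher and none was lower, and of 9 tested neural crest genes 4 were higher and none was lower (1 of each list in every fit). The called share was 25% in the melanocyte list, near the 21.8% of all tested genes, and 44.4% in the neural crest list. The median difference was -0.11 in the melanocyte list and 0.29 in the neural crest list, against -0.05 over all genes. GPNMB, a glycoprotein of melanosomes and lysosomes, had 57.9 and 61.2 FPKM in R_shLSD1 libraries, against 19.4 and 18.3 FPKM in R_shCtrl libraries (difference 1.61 ± 0.09, adjusted p = 0.0015). L1CAM, a neural adhesion molecule, had 51.9 and 51.4 FPKM in R_shLSD1 libraries, against 31.7 and 32.1 FPKM in R_shCtrl libraries (difference 0.68 ± 0.08, adjusted p = 0.0062). MITF, the melanocyte master regulator, had 39.2 and 35.3 FPKM in R_shLSD1 libraries, against 26.3 and 22.995 FPKM in R_shCtrl libraries (difference 0.58 ± 0.11, adjusted p = 0.024), and its call was lost in all 4 fits, with an adjusted p of 0.095 without R_shLSD1 replicate 1, 0.056 without R_shLSD1 replicate 2, 0.058 without R_shCtrl replicate 1 and 0.087 without R_shCtrl replicate 2. PMEL and MC1R, which are turned on with pigmentation, had differences of -0.12 and -0.24 and were not called.

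Neuronal and secretory granule genes that REST represses were examined because REST brings the LSD1-CoREST complex to them. Of 30 listed genes 13 reached the level for testing, and of these 5 were higher and 0 lower (3 in every fit), with a median of 0.68. VGF, a secreted neuropeptide precursor, had 16.7 and 14.1 FPKM in R_shLSD1 libraries, against 2.69 and 2.04 FPKM in R_shCtrl libraries (difference 2.29 ± 0.19, adjusted p = 0.003). BEX1, a small adaptor protein of neurons, had 16.7 and 17.6 FPKM in R_shLSD1 libraries, against 5.77 and 4.297 FPKM in R_shCtrl libraries (difference 1.602 ± 0.17, adjusted p = 0.0051). Together with L1CAM these 2 genes were higher in both R_shLSD1 libraries. Genes that passed the filter only through R_shLSD1 had to be higher there, so the count and the median describe the tested members and not the whole list. The called share of the tested members was 38.5%, against 21.8% of all tested genes. SCG2 and SYT1 had differences of 0.72 and 0.14 and were not called.

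Output genes of the MAPK pathway, the pathway that the inhibitors of the series block, moved in both directions. Of 23 tested members, 6 were higher and 7 lower (3 and 5 in every fit), with a median of -0.01. DUSP6, the phosphatase that switches off ERK, had 12.9 and 8.64 FPKM in R_shLSD1 libraries, against 56.7 and 48.6 FPKM in R_shCtrl libraries (difference -2.21 ± 0.20, adjusted p = 0.0036). IER3, an early response gene, had 101 and 91.2 FPKM in R_shLSD1 libraries, against 303 and 287 FPKM in R_shCtrl libraries (difference -1.61 ± 0.07, adjusted p = 0.0011). PHLDA1 had 17.9 and 16.8 FPKM in R_shLSD1 libraries, against 54.8 and 54.5 FPKM in R_shCtrl libraries (difference -1.599 ± 0.09, adjusted p = 0.0015). These 3 and the cytokine IL11, with a difference of -1.33, were lower in both R_shLSD1 libraries. DUSP5, a nuclear ERK phosphatase, had 81.97 and 77.9 FPKM in R_shLSD1 libraries, against 48.4 and 49.3 FPKM in R_shCtrl libraries (difference 0.70 ± 0.07, adjusted p = 0.0047). TRIB1 had 19.7 and 20.5 FPKM in R_shLSD1 libraries, against 6.61 and 7.796 FPKM in R_shCtrl libraries (difference 1.37 ± 0.14, adjusted p = 0.0045). CCND1, cyclin D1, had 156 and 162 FPKM in R_shLSD1 libraries, against 102 and 107 FPKM in R_shCtrl libraries (difference 0.60 ± 0.06, adjusted p = 0.0044). DUSP4 and SPRY4, other ERK feedback genes, had differences of -0.01 and -0.01 and were not called. The called share of the MAPK list was 56.5%, against 21.8% of all tested genes.

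AP-1 subunits, which pair as FOS and JUN family members on the pattern TGANTCA, included 5 higher and 2 lower of 13 tested (1 of each in every fit). JUN had 85.8 and 83.6 FPKM in R_shLSD1 libraries, against 42.3 and 42.6 FPKM in R_shCtrl libraries (difference 0.98 ± 0.07, adjusted p = 0.0023). JUNB had 50.02 and 52.5 FPKM in R_shLSD1 libraries, against 115 and 108 FPKM in R_shCtrl libraries (difference -1.11 ± 0.07, adjusted p = 0.002), the opposite direction. FOSL1, the FOS family member that the series also targeted by a hairpin, had 144 and 142 FPKM in R_shLSD1 libraries, against 109 and 104 FPKM in R_shCtrl libraries (difference 0.42 ± 0.06, adjusted p = 0.01). Its groups did not overlap, and its adjusted p was 0.051 without R_shLSD1 replicate 1, 0.048 without R_shLSD1 replicate 2, 0.042 without R_shCtrl replicate 1 and 0.051 without R_shCtrl replicate 2. FOS and FOSL2 had differences of -0.14 and 0.02 and were not called. The called share of the AP-1 list was 53.85%, against 21.8% of all tested genes.

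TGF-beta and BMP genes moved in both directions, with 5 higher and 7 lower of 19 tested (4 and 4 in every fit). Among ligands, TGFB1 had 47.6 and 43.1 FPKM in R_shLSD1 libraries, against 98.6 and 93.5 FPKM in R_shCtrl libraries (difference -1.07 ± 0.08, adjusted p = 0.0026), and INHBA, a subunit of activin, had 9.28 and 9.06 FPKM in R_shLSD1 libraries, against 31.2 and 33.99 FPKM in R_shCtrl libraries (difference -1.72 ± 0.11, adjusted p = 0.002). Among receptors, TGFBR2 had 40.6 and 41.7 FPKM in R_shLSD1 libraries, against 17.9 and 17.8 FPKM in R_shCtrl libraries (difference 1.16 ± 0.09, adjusted p = 0.0027), and TGFBR3 had a difference of 1.298. The mediator SMAD3 had a difference of -1.03. The BMP target genes ID1 and ID3 rose, ID3 with 189 and 186 FPKM in R_shLSD1 libraries, against 60.9 and 55.98 FPKM in R_shCtrl libraries (difference 1.67 ± 0.07, adjusted p = 0.0011) and ID1 with a difference of 1.198. BMPR2 and ID2 had differences of 0.05 and 0.04 and were not called. The called share of the TGF-beta and BMP list was 63.2%, against 21.8% of all tested genes.

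Targets of p53 were lower in 9 and higher in 1 of 21 tested members (6 and 0 in every fit), with a median of -0.31. MDM2, the ligase that degrades p53, had 13.5 and 12.3 FPKM in R_shLSD1 libraries, against 33.6 and 35.5 FPKM in R_shCtrl libraries (difference -1.35 ± 0.11, adjusted p = 0.0029). CDKN1A, the cell-cycle inhibitor p21, had 26.8 and 34.002 FPKM in R_shLSD1 libraries, against 59.97 and 64.6 FPKM in R_shCtrl libraries (difference -1.02 ± 0.13, adjusted p = 0.0081). XPC, a DNA damage sensor, had 9.53 and 8.27 FPKM in R_shLSD1 libraries, against 39.4 and 36.7 FPKM in R_shCtrl libraries (difference -1.98 ± 0.12, adjusted p = 0.0019). BAX, DDB2 and SESN2 were lower as well, with differences of -0.75, -1.11 and -0.83, and SESN2 is also in the ATF4 list. Mitosis genes included 10 lower and 1 higher of 26 (3 and 0 in every fit), with a median of -0.30. MAD2L1, a spindle checkpoint protein, had 23.7 and 22.4 FPKM in R_shLSD1 libraries, against 44.4 and 56.1 FPKM in R_shCtrl libraries (difference -1.08 ± 0.13, adjusted p = 0.0071), and TPX2 and CCNB1 had differences of -0.67 and -0.53. MKI67 and AURKA had differences of -0.38 and -0.06 and were not called. Called shares were 47.6% in the p53 list and 42.3% in the mitosis list, against 21.8% of all tested genes. Replication genes included 6 lower and 1 higher of 28 (3 and 1 in every fit), a called share of 25%, MCM2, a helicase subunit, with 48.4 and 49.6 FPKM in R_shLSD1 libraries, against 89.4 and 86.9 FPKM in R_shCtrl libraries (difference -0.83 ± 0.07, adjusted p = 0.003). The member that rose was CCND1.

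Glycolysis and lactate genes were examined because the series title concerns lactylation, the transfer of lactate to lysine. Of 24 tested members, 8 were higher and 3 lower (3 and 0 in every fit), with a median of -0.02. SLC2A3, a glucose transporter, had 141 and 139 FPKM in R_shLSD1 libraries, against 78.5 and 74.5 FPKM in R_shCtrl libraries (difference 0.86 ± 0.06, adjusted p = 0.0023). ALDOC, an aldolase, had 300.1 and 286 FPKM in R_shLSD1 libraries, against 183 and 176 FPKM in R_shCtrl libraries (difference 0.70 ± 0.06, adjusted p = 0.0027). ENO2, an enolase, had a difference of 0.77. LDHA, which makes lactate, had 845 and 871 FPKM in R_shLSD1 libraries, against 1082 and 1097 FPKM in R_shCtrl libraries (difference -0.34 ± 0.04, adjusted p = 0.0074). It was lower in both R_shLSD1 libraries, and its adjusted p was 0.051 without R_shLSD1 replicate 1, 0.04 without R_shLSD1 replicate 2, 0.037 without R_shCtrl replicate 1 and 0.037 without R_shCtrl replicate 2. Of 16 enzymes reported to write or erase lysine lactylation, 4 were lower and none was higher (2 in every fit), a called share of 25%, AARS1, an alanyl-tRNA synthetase, with 99.5 and 97.8 FPKM in R_shLSD1 libraries, against 185 and 166 FPKM in R_shCtrl libraries (difference -0.82 ± 0.07, adjusted p = 0.0034) and HDAC2 as given above. EP300, an acyltransferase, had a difference of 0.13 and was not called. Called shares were 45.8% in the glycolysis list and 42.1% in the hypoxia list, against 21.8% of all tested genes. Hypoxia genes included 5 higher and 3 lower of 19 (4 and 1 in every fit), CA9 with 355 and 327 FPKM in R_shLSD1 libraries, against 213 and 191 FPKM in R_shCtrl libraries (difference 0.76 ± 0.08, adjusted p = 0.0046) and VEGFA with 26.1 and 29.1 FPKM in R_shLSD1 libraries, against 49.4 and 49.5 FPKM in R_shCtrl libraries (difference -0.82 ± 0.09, adjusted p = 0.006).

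Mitochondrially encoded mRNAs included 8 higher and 1 lower of 13 (5 and 0 in every fit), with a median of 0.22. MT-ND1, a subunit of respiratory complex I, had 2357 and 2431 FPKM in R_shLSD1 libraries, against 1248 and 1295 FPKM in R_shCtrl libraries (difference 0.91 ± 0.04, adjusted p = 0.0012). MT-ND5 and MT-ND2, of the same complex, had differences of 0.68 and 0.43. The called share of these mitochondrial mRNAs was 69.2%, against 21.8% of all tested genes and 8.7% of nuclear genes of oxidative phosphorylation. MT-ND6, the subunit on the other strand, had 2867 and 3092 FPKM in R_shLSD1 libraries, against 1274 and 1301 FPKM in R_shCtrl libraries (difference 1.21 ± 0.05, adjusted p = 0.0011), and without knowing whether strand was used, its fragments cannot be told apart from those antisense to it. Of 23 nuclear genes of oxidative phosphorylation, 1 was higher and 1 lower (0 and 1 in every fit), the lower one being TFAM, a mitochondrial transcription factor, with 13.1 and 15.8 FPKM in R_shLSD1 libraries, against 29.4 and 34.8 FPKM in R_shCtrl libraries (difference -1.097 ± 0.15, adjusted p = 0.0087). Cytosolic ribosomal protein genes had 7 lower and 0 higher of 27 (1 and 0 in every fit), a called share of 25.9%, with differences that stayed between -0.38 and 0.10.

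Interferon-stimulated genes included 5 lower and 0 higher of 22 tested (1 and 0 in every fit), with a median of -0.49 and a called share of 22.7%, near that of all tested genes. IFITM3, which restricts virus entry, had 33.2 and 32.04 FPKM in R_shLSD1 libraries, against 65.3 and 68.7 FPKM in R_shCtrl libraries (difference -1.02 ± 0.08, adjusted p = 0.0027). ISG15, a ubiquitin-like protein, had a difference of -0.34 and was not called. Of 8 sensors of double-stranded RNA or DNA and their adaptors, 1 was higher and 1 lower, and neither call held in every fit. MHC class I genes had 2 higher and 2 lower of 17 (1 of each in every fit), a called share of 23.5% that was near the 21.8% of all tested genes. B2M, the light chain, had 742 and 767 FPKM in R_shLSD1 libraries, against 518 and 529 FPKM in R_shCtrl libraries (difference 0.53 ± 0.05, adjusted p = 0.0034). PSMB8, an immunoproteasome subunit, had 21.6 and 21.6 FPKM in R_shLSD1 libraries, against 45.5 and 42.8 FPKM in R_shCtrl libraries (difference -0.998 ± 0.09, adjusted p = 0.0036). HLA-E, a non-classical heavy chain, had a difference of 0.01 and was not called.

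Further lists held members called in both directions. Lysosome and autophagy genes included 8 higher and 3 lower of 22 (3 and 2 in every fit), led by SQSTM1, the autophagy receptor p62, with 844 and 829 FPKM in R_shLSD1 libraries, against 412 and 384 FPKM in R_shCtrl libraries (difference 1.07 ± 0.05, adjusted p = 0.0012). Cholesterol and lipid synthesis genes had 4 higher and 5 lower of 25 (2 of each in every fit), with SC5D, a late enzyme of cholesterol synthesis, at 6.28 and 5.98 FPKM in R_shLSD1 libraries, against 21.7 and 21.1 FPKM in R_shCtrl libraries (difference -1.65 ± 0.13, adjusted p = 0.0025). Among 16 WNT genes 4 were higher and 2 lower (2 and 0 in every fit), and DKK1, a secreted WNT inhibitor, had 193 and 189 FPKM in R_shLSD1 libraries, against 117 and 118 FPKM in R_shCtrl libraries (difference 0.69 ± 0.05, adjusted p = 0.0026). The 10 tested NOTCH genes had 1 higher and 2 lower, none of which held in every fit. Receptor tyrosine kinases had 4 higher and 4 lower of 16 (0 and 1 in every fit), and IGF1R, the insulin-like growth factor receptor, had 10.2 and 11.02 FPKM in R_shLSD1 libraries, against 24.5 and 26.97 FPKM in R_shCtrl libraries (difference -1.202 ± 0.12, adjusted p = 0.0044). The 3 tested metallothioneins had 1 higher and 2 lower (1 of each in every fit), of which MT2A had 2518 and 2606 FPKM in R_shLSD1 libraries, against 4076 and 3816 FPKM in R_shCtrl libraries (difference -0.62 ± 0.05, adjusted p = 0.0026) and MT1X had 349.7 and 339 FPKM in R_shLSD1 libraries, against 226 and 232 FPKM in R_shCtrl libraries (difference 0.59 ± 0.05, adjusted p = 0.0034), in opposite directions. Epithelial genes had 3 higher and 4 lower of 14 (2 of each in every fit), KRT17 with a difference of 1.69 and KRT81 with -1.93. Of 5 tested replication-dependent histone genes, none was called. Called shares were 50% for lysosome and autophagy, 36% for cholesterol and lipid synthesis, 37.5% for WNT and 30% for NOTCH genes. They were 50% for receptor tyrosine kinases, 50% for epithelial genes and 100% of the 3 metallothioneins, against 21.8% of all tested genes. The plot of lists with at least 8 tested members sets the shares higher and lower beside those of all tested genes.

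**Figure D4:**
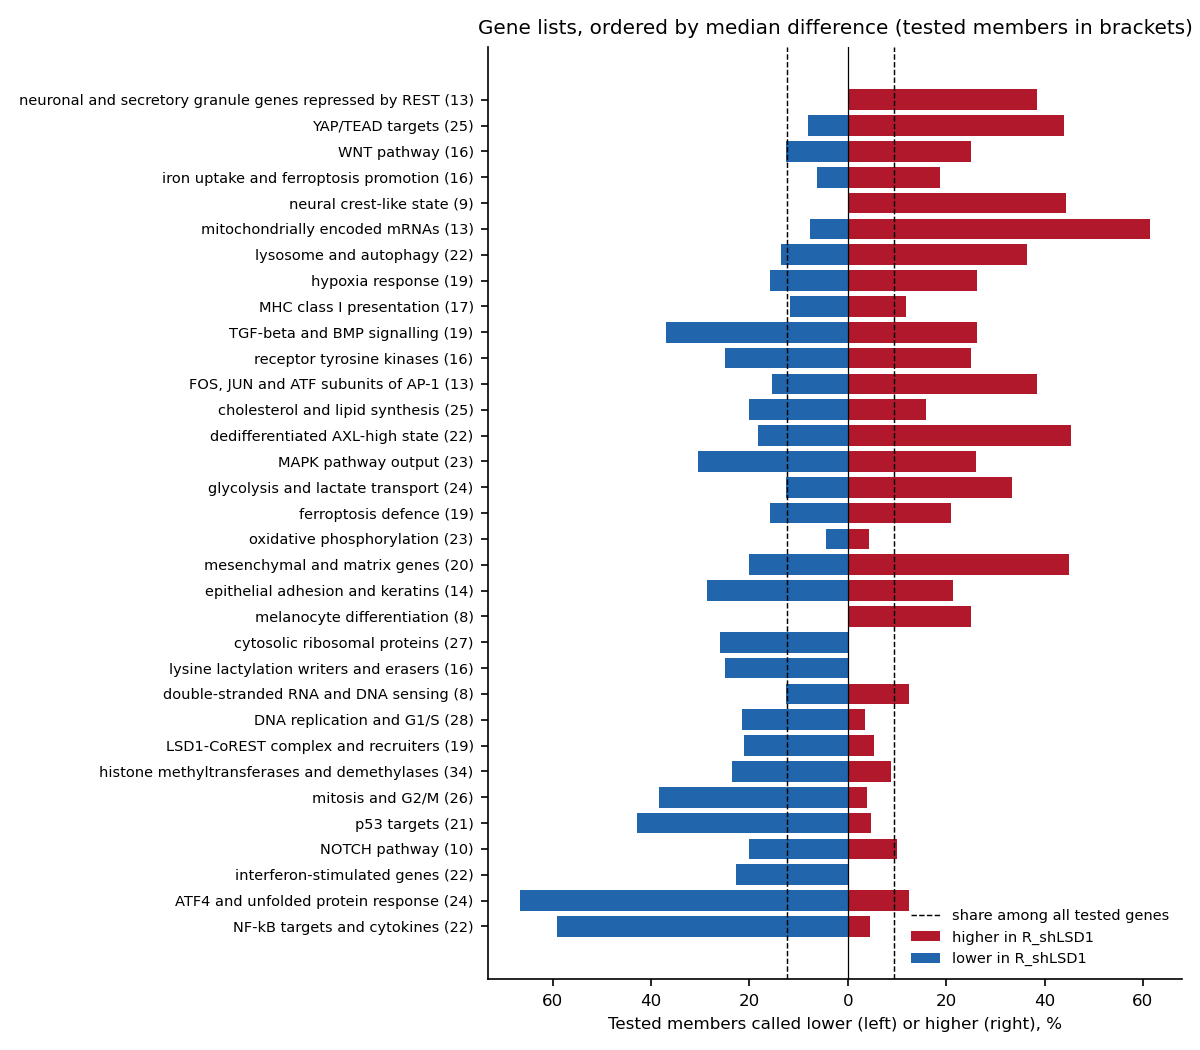
Share of tested members called higher (red, right) or lower (blue, left) in R_shLSD1 for each gene list with at least 8 tested members, ordered by median difference, with dashed lines at the shares of all tested genes (9.42% higher, 12.4% lower). The ATF4 list has the longest bar to the left and mitochondrially encoded mRNAs the longest to the right.

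The same hairpins were read in the P line, in a table normalized separately and with other control libraries. KDM1A had 9.54 and 6.73 FPKM in P_shLSD1 libraries, against 78.1 and 72.4 FPKM in P_shCtrl libraries, a difference of -3.08 ± 0.20 (adjusted p = 0.016), and the R minus P difference of the effect was 0.37 (adjusted p = 0.47). In P, 504 of 14729 genes were called (3.42%), 324 higher (2.2%) and 180 lower (1.22%). Standard errors of most of the fixed genes were larger in P, such as 0.20 against 0.04 in R for LDHA and 0.28 against 0.07 for GPX4. DUSP6 went the other way, with 0.15 in P and 0.20 in R. The part of this spread in the smaller number of calls in P was not tested. Of 13250 genes tested in both lines, 260 were called in both, 240 of them in the same direction and the rest in opposite directions. The 240 shared genes are 8.14% of the 2949 called in R and 55.2% of the 435 called in P. Across the 13250 genes, which are not independent replicates, the differences in the 2 lines had a Pearson's r of 0.41. Genes near the ends of this shared group, chosen after their values were seen, include SPP1, osteopontin, with 2.31 in R and 2.66 in P, VGF with 2.29 in R and 3.03 in P, and TNC with 1.42 in R and 2.89 in P. CHAC1, with -3.09 in R and -2.25 in P, and GDF15, with -2.47 in R and -1.51 in P, were lower in both lines. EI24 (-2.38 in R, -2.26 in P), MAT2B (-2.38 in R, -2.13 in P), SSB (-2.29 in R, -2.12 in P) and PTMA (-2.099 in R, -1.92 in P) were also lower in both lines, and their R minus P differences were not called (adjusted p from 0.71 to 0.78). Some genes named above went the other way by level in P. ANKRD1 and CCN1 were lower in both P_shLSD1 libraries. IL11 had 111 and 108 FPKM in P_shLSD1 libraries, against 10.7 and 12.8 FPKM in P_shCtrl libraries. MYEOV had 37.0 and 27.9 FPKM in P_shLSD1 libraries, against 10.3 and 10.1 FPKM in P_shCtrl libraries. DDIT4, INHBA and TGFB1 were also higher in both P_shLSD1 libraries, and DKK1 was lower in both. These genes are examples and not a full count.

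The effect of the hairpin differed between the lines, by a test of the difference itself, for 303 of 16075 genes (1.88%), 103 of them (0.641%) higher and 200 (1.24%) lower in R than in P. The number fell to between 31 and 135 when any 1 of the 8 libraries was left out. G0S2 was listed at 0 in all 4 P libraries, so its R minus P difference is its R effect alone. MMP12 had 0.552 and 0.876 FPKM in P_shLSD1 libraries, against 0 and 0 FPKM in P_shCtrl libraries, and its R minus P difference was 3.21 (adjusted p = 0.0077, 0.026 to 0.057 with 1 library left out). CPA4 had 56.2 and 56.9 FPKM in P_shLSD1 libraries, against 71.5 and 68.8 FPKM in P_shCtrl libraries, far above the R line, and its R minus P difference was 3.34 (adjusted p = 0.014, 0.0039 to 0.080 with 1 library left out). DUSP6 had 71.4 and 72.5 FPKM in P_shLSD1 libraries, against 99.3 and 97.8 FPKM in P_shCtrl libraries, and its R minus P difference was -1.76 (adjusted p = 0.023, 0.033 to 0.11 with 1 library left out). TFRC had 98.7 and 85.6 FPKM in P_shLSD1 libraries, against 59.8 and 76.3 FPKM in P_shCtrl libraries, and its R minus P difference of 0.70 was not called (adjusted p = 0.14). The differences of FOSL1, SLC7A11, LDHA, GPX4, AXL, MITF and EGFR between the lines were not called either, with adjusted p from 0.13 to 0.97. SOX10, listed at 0 in all 4 R libraries, had 185 and 200 FPKM in P_shLSD1 libraries, against 99.3 and 89.1 FPKM in P_shCtrl libraries (difference 1.02 ± 0.17, adjusted p = 0.044). Its R minus P difference of -1.02 is its P effect alone and was not called (adjusted p = 0.0503).

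**Figure D5:**
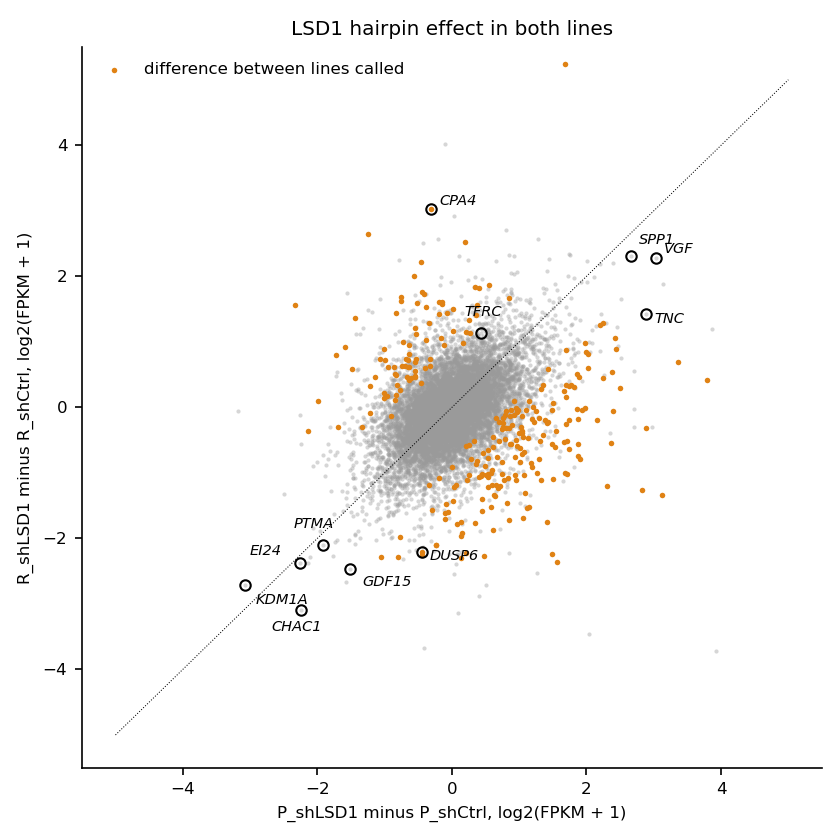
LSD1 hairpin effect in log2(FPKM + 1) in the R line (R_shLSD1 minus R_shCtrl, y axis) against the P line (P_shLSD1 minus P_shCtrl, x axis) for 13250 genes tested in both, with genes whose effect differed between lines in orange and a dotted line of equal effect. KDM1A, EI24 and PTMA lie near the dotted line at the lower left, and CPA4 lies high on the y axis near 0 on the x axis.

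Levels in the FOSL1 hairpin libraries of the R line stand in a further table with no control libraries, so they are given beside the others with no test. FOSL1 itself had 36.2 and 38.3 FPKM in R_shFosL1. TFRC had 175 and 174 FPKM in R_shFosL1, below both R_shLSD1 libraries and above both R_shCtrl libraries. KDM1A had 78.5 and 78.1 FPKM, close to R_shCtrl. NPPB had 9.84 and 9.399 FPKM, in the range of R_shLSD1, and G0S2 had 5.54 and 4.63 FPKM, as low as R_shLSD1. GDF15 had 232 and 244 FPKM and CHAC1 18.9 and 20.9 FPKM, both far above R_shLSD1. MMP12 had 3.57 and 1.13 FPKM, far below R_shLSD1.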

How the data were processed

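The authors deposited FPKM values, 1 table for the R line with the LSD1 and control hairpins, 1 for the P line with the same hairpins and 1 for the R line with the FOSL1 hairpin. Per the submitters' processing notes, CASAVA 1.4, HISAT2 2.1.0 and Cufflinks 2.2.1 were used with hg38. Per the labels' protocols, there were 2 library protocols, a directional kit and an rRNA depletion, with no library assigned to either, so a batch by protocol could not be examined. Of 60595 genes in the R table, 58520 identifiers are in GENCODE 29, 5296 symbols were replaced by those of a separate gene name reference, and 4940 blank rows were dropped. Coordinates of genes are from GENCODE 29. The deposited p-value column was not used. FPKM keeps no read counts, so no counting interval is given.

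Genes with 2 or more of the 4 libraries reaching 1 FPKM were tested with limma 3.58.1 in R 4.3.3 on log2(FPKM + 1), a pseudocount of 1, with eBayes moderation (trend and robust on, 2 residual and 3.378 prior degrees of freedom). Calls are at a Benjamini-Hochberg adjusted p under 0.05 over all tested genes. The script was tested on simulated data. The difference between lines was an interaction over 8 hairpin libraries at 1 FPKM or more in at least 2, in tables normalized separately.

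The members, gene lists and tests were chosen with earlier results of these data known, so no p over a list is given. Named genes are 11 fixed genes, 10 rises and 10 falls of greatest log2 difference, from further called genes without overlap between groups and with a mean of at least 2 FPKM in the higher group, up to 4 called members of each list with the smallest adjusted p, and, where fewer than 2 were called, up to 2 with the smallest p. Further list members, called or not, were picked after their values were seen. The patterns TGATGNAA and kappaB-like were chosen after the values were seen. Promoter windows are from RefSeq, and 10193 of the tested genes had one. Alternatives varied the pseudocount, filter, scaling, moderation, samples in the fit, replicate block and each library left out. Some list members are not reported here.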

Additional observations from a re-analysis of the deposited data

Results flagged for a closer look

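A total of 7 named genes differed in their LSD1 hairpin effect between the R and P lines by the limma test of the difference itself over 8 libraries. MMP12, CPA4, ZNF114 and NPPB had R minus P differences of 3.214, 3.336, 3.01 and 3.062 on the log2(FPKM + 1) scale, with adjusted p of 0.0077, 0.014, 0.012 and 0.020. MMP12, ZNF114 and NPPB were under 1 FPKM in all 4 P libraries and passed the filter through the R line alone, and NPPB was listed at 0 in all 4, so its value is its R effect alone. The pseudogene SNRPGP15 had a difference of 3.557 (adjusted p = 0.013), and it shares sequence with SNRPG. DUSP6 had a difference of -1.758 (adjusted p = 0.023), and G0S2 had -3.628 (adjusted p = 0.0046), which is its R effect alone since G0S2 was listed at 0 in all 4 P libraries. With each of the 8 libraries left out in turn, G0S2 was called in 8 of 8 fits, MMP12 in 6, SNRPGP15 in 5, CPA4 in 4, ZNF114 in 3, DUSP6 in 1 and NPPB in 0, where its adjusted p was 0.054 to 0.086. With a replicate block in the fit, none of the 7 genes was called (adjusted p from 0.086 to 0.13). The cause of these differences was not tested, and the 2 lines were normalized in separate tables.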

How the results depend on the processing

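The number of called genes was 3118, and it was within 1.5 times that number with a pseudocount of 0.1 or 0.5, a filter at 5 FPKM, quantile normalization, rescaling to TPM and the replicate block. It was 1609 with every gene above 0 FPKM tested (702 higher, 907 lower), 1840 without trend or robust moderation (869 higher, 971 lower) and 2028 when all 8 hairpin libraries shared the spread (1080 lower). With 1 library left out, the ranges were 966 to 1439 called, 482 to 657 called at least 2-fold, 492 to 567 higher and 474 to 907 lower. The differences between lines, 303 in number, ranged from 31 to 135 with 1 library left out and came to 1 with the replicate block, which called none of the 7 named genes that differed between lines (DUSP6, SNRPGP15, MMP12, NPPB, CPA4, ZNF114 and G0S2, adjusted p from 0.086 to 0.13). In the R line, same-numbered libraries deviated from their group means with a correlation of 0.015 across genes. With 2 libraries in a group, both pairs of libraries give this same value. The numbers are therefore not read as pairing in R, where the block gave 3209 calls. The correlation was not computed for the P line, so whether the numbers mark pairs there is not known. Of 1847 alternative values of 144 named genes, 1649 kept direction and side of the threshold, 196 of called genes missed the threshold and 2 turned their sign. In every alternative in which they could be tested, 93 of 140 called genes were called. Genes that a filter removed from some alternatives, such as SNRPGP15, NPPB and HMGA1P2, were judged on the remaining ones. Both reversals are of EGFR, which ranged up to 0.1044 without R_shLSD1 replicate 1 and stood at -0.08034 without R_shLSD1 replicate 2 and -0.06263 without R_shCtrl replicate 2, and EGFR was never called. Depth, known only roughly, limits genes near 1 FPKM most.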

Other observations

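Some further gene families, chosen by symbol after the values were seen, held many called members and others few. Of 17 cytosolic aminoacyl-tRNA synthetase genes, which charge tRNAs for translation, 12 were lower and 0 higher in R_shLSD1 than in R_shCtrl (10 in every fit with 1 library left out), with a median difference of -0.64. Of 38 proteasome subunit genes, 26 were lower and 1 was higher (11 and 1 in every fit), with a median of -0.38. Translation initiation factors had 14 lower and 0 higher of 51 (4 in every fit), and mitochondrial ribosomal proteins 17 lower and 1 higher of 78 (7 and 0 in every fit). The ADAM and ADAMTS proteases had 8 higher and 1 lower of 14 (4 and 0 in every fit), led by ADAM12 (15.04 and 17.4 FPKM in R_shLSD1 libraries, against 3.36 and 3.04 FPKM in R_shCtrl libraries). Zinc-finger genes named ZNF had 19 higher and 16 lower of 425, 3 and 0 of them in every fit. Over all tested genes, 9.42% were called higher and 12.4% lower.

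A total of 33 genes, SNRPGP15 among them, were listed at 0 in both R_shCtrl libraries and at 1 FPKM or more in both R_shLSD1 libraries, and 33 showed the reverse. The reverse group held HMGA1P2 and also CSF3, a granulocyte growth factor, with 4.61 and 3.06 FPKM in R_shCtrl libraries, and MMP9, a gelatinase, with 1.98 and 1.65 FPKM in R_shCtrl libraries. CSF3 and MMP9 were listed at 0 in the 2 R_shLSD1 libraries. Protein-coding genes had 23.8% called of 11797 tested, against 11.99% of 492 long intergenic RNAs and 13.4% of 863 antisense genes.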
